A study of Mus musculus with 6 samples.

Results

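The genes described here are 39 genes of the synaptic vesicle, of transmitter release and of the synaptic scaffold. They were taken from a list of names and read in ipsilateral and contralateral retinal ganglion cells (RGCs) of the embryonic mouse. All 39 had a probe set annotated to them alone whose mean lay above the low-signal filter, so they are 39 of the 15346 genes measured in this way (18193 before the filter). Where a gene had several probe sets, the brightest over the 6 arrays stands for it. The list was not drawn from the values, but it was proposed with earlier results of these data known.

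RGCs are the output neurons of the retina. The axons of most cross the midline at the optic chiasm, and those of a smaller group in the ventrotemporal retina turn back to the same side. The ipsilateral samples held RGCs labelled from the optic tract on their own side. The contralateral samples held RGCs labelled from the opposite tract. All came from C57BL/6J embryos at E16.5 (the sample labels round this to day 16), with no genetic or drug treatment. A fluorescent dextran was applied to the cut tract and left for 2 h, the retinas of 2 litters were pooled, and dye-filled cells were sorted by FACS. This was done in 3 rounds. Each round gave 1 ipsilateral and 1 contralateral array, and both sides came from the same dissection and preparation. The rounds used had been selected by qPCR for enrichment of Zic2, a transcription factor of ipsilateral RGCs. Values are log2 intensities, and a difference is ipsilateral minus contralateral RGCs, so that −1 is a 2-fold lower level in ipsilateral RGCs.

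At a mature synapse, vesicles filled by transmitter transporters dock at the active zone, a protein mesh beneath the presynaptic membrane. SNARE proteins of the vesicle and of the plasma membrane pull the membranes together, synaptotagmins trigger fusion when calcium enters, and complexins hold and then assist the fusion machinery. NSF and the SNAPs take spent SNARE complexes apart, while dynamin, amphiphysin and endophilin retrieve the membrane. RGCs release glutamate. At the embryonic ages studied, their axons are still growing through the chiasm and tract, and many of these proteins are already made in growing axons.

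The 39 genes were lower in ipsilateral RGCs as a rule, by small amounts, and none passed the test. The median difference was −0.46, beside −0.01 over all 15346 genes, and the members ran from −0.92 (Slc17a6) to 0.32 (Sv2b). The mean was lower for 36 of the 39 (92.3%), beside 52.5% of all genes, and higher for Sv2b, Slc32a1 and Dlg4. In every round the ipsilateral value lay under the contralateral one for 25 members (64.1%), beside 20.2% of all genes. No member was higher in all 3 rounds, beside 17.6% of all genes. Of the remaining members, 11 were lower in 2 rounds and 3 in 1 round. The 3 ipsilateral arrays lay wholly below the 3 contralateral arrays for 8 members (20.5%), which were Snap25, Napb, Syt1, Syt4, Slc17a6, Amph, Sh3gl2 and Nlgn2. The share over all genes was 1.98%. The reverse, ipsilateral arrays wholly above, was found for no member and for 3.84% of all genes.

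A call required a difference of 2-fold or more and a Benjamini–Hochberg adjusted p under 0.05 in limma. No gene of the 15346 was called lower in ipsilateral RGCs (0.0%), 55 were called higher (0.358%), and no member was called either way. The largest member difference, that of Slc17a6, was 1.89-fold, and the lowest adjusted p of a member in limma was 1.0. At an unadjusted p under 0.05 limma passed 1 member as lower, Amph, beside 0.3% of all genes, and none as higher, beside 2.74%. An unmoderated test passed 5 members as lower, beside 1.06%, and none as higher. In limma with the round as a replicate block, 0 members were called, beside 0.0% of all genes as lower and 0.319% as higher. The lowest adjusted p was then 0.114, for Rab3c, and 19 members (48.7%) were lower at an unadjusted p under 0.05, beside 6.63% of all genes, and none was higher, beside 7.91%. Only limma with array weights called members, 2 as lower (Slc17a6 and Amph), beside 0.365% of all genes, with most of the weight on round 3. The median standard error of a member's difference was 0.41 without and 0.16 with the block. Each standard error (SE) given for a gene below is from the fit without the block, unless stated. Such an SE includes the spread between rounds, which the block takes out. With 3 arrays on each side, the smallest p that an exact permutation test of unpaired arrays could give for 1 gene is 0.1. Arrays kept in pairs by round allow fewer rearrangements, so that limit is then higher. In sorted pools, a smaller share of cells that express a gene and less RNA per cell cannot be told apart.

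**Figure D1:**
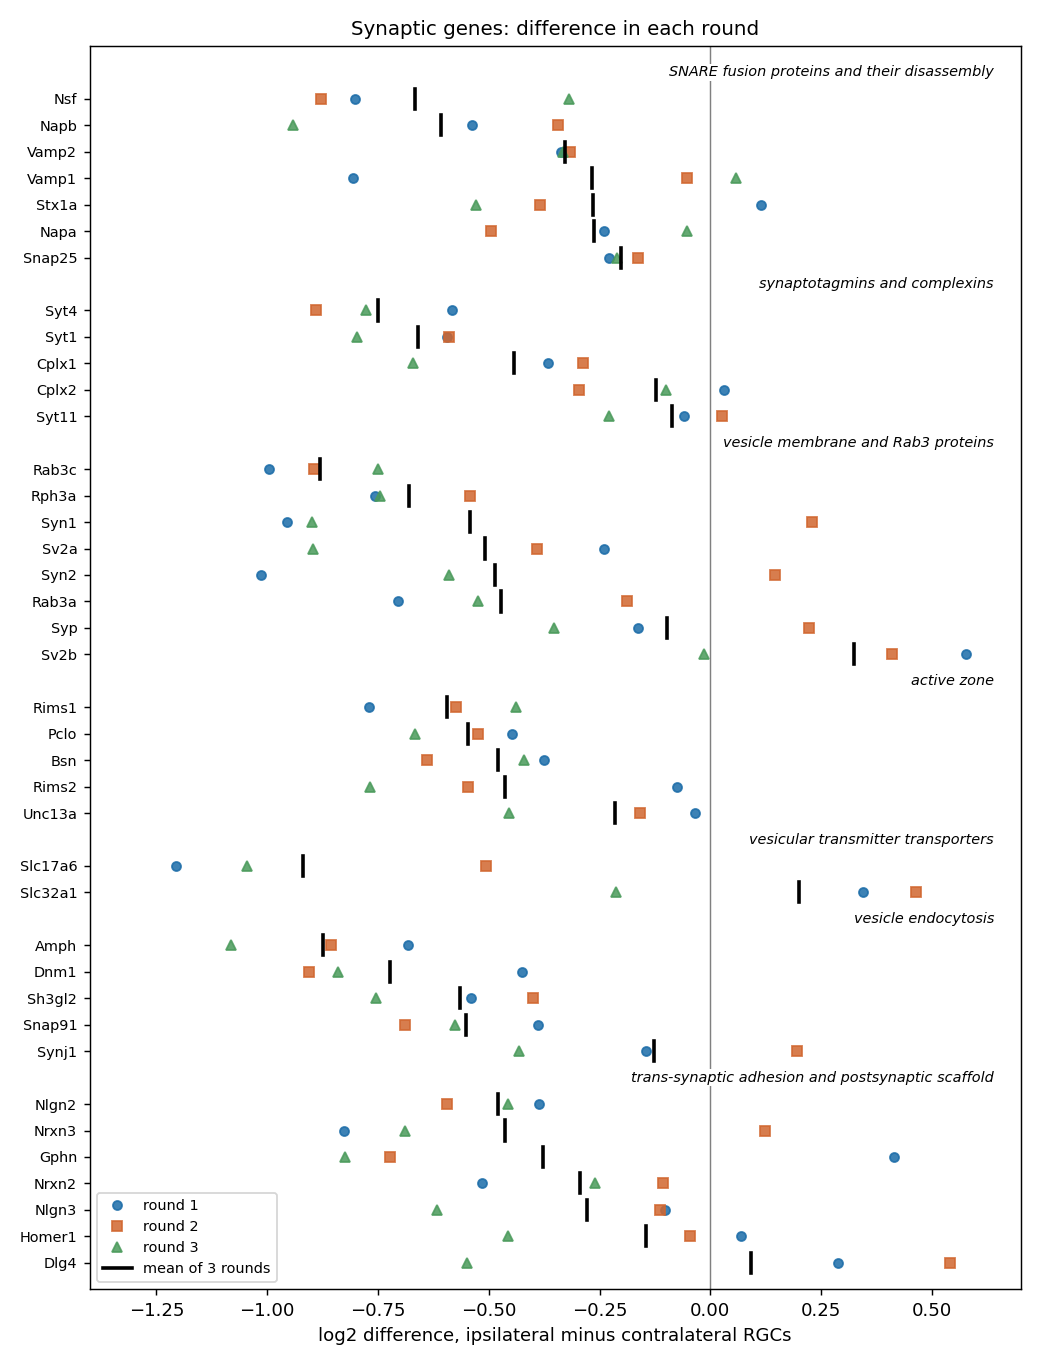
Difference in log2 level, ipsilateral minus contralateral RGCs, of the 39 genes in each of the 3 rounds (points), grouped by role; the vertical bar is the mean of the 3 rounds. The points of 25 genes lie wholly to the left of 0, and those of no gene lie wholly to the right.

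The start sites of 4 members are shown because these genes differ in presynaptic role and in the short elements upstream of them. The 250 bases before a start were taken from the RefSeq promoter table (GRCm38.p6), in which 33 of the 39 genes had 48 promoters. Capitals mark elements found by letter search on either strand: TGACGTCA (the CRE, bound by CREB), TTCAGCACC (the left part of the RE1 element, bound by the repressor REST) and GGGCGG or its reverse CCGCCC (the GC box, bound by Sp1). Syn1, with both of the first elements, lies on the minus strand at chrX:20920919-20921168, and Sh3gl2 on the plus strand at chr4:85205206-85205455. Slc17a6 (first of 2 listed starts, chr7:51621580-51621829) and Amph (chr13:18948101-18948350), both on the plus strand, had 2 of the largest differences. No CRE was found in them, as in all member promoters but those of Syn1 and Sh3gl2. A link between elements and differences was not tested.
Syn1: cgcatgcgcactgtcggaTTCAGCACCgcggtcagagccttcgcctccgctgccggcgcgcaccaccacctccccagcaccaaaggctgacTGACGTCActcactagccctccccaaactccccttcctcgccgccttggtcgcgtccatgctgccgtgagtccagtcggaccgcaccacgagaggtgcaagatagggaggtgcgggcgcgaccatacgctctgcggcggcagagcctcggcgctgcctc
Sh3gl2: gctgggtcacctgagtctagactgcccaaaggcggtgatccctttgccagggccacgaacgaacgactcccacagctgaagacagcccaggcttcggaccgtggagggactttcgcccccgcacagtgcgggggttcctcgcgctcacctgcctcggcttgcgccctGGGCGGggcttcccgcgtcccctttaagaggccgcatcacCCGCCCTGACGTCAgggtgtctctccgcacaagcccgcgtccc
Slc17a6: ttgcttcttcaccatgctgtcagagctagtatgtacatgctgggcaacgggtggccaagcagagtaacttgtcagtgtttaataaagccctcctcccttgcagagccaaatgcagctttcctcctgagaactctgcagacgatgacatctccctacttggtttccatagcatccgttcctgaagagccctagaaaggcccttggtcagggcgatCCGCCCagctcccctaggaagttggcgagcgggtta
Amph: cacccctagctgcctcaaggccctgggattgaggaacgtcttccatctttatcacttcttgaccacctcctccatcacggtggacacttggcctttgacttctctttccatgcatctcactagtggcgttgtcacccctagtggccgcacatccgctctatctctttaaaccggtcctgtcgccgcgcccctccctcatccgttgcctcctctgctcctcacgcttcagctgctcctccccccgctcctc

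In Syn1 the RE1 part began at −232 and the CRE at −159 from the start. In Sh3gl2 the CRE began at −37 and directly followed a GC box. A CRE was found in 2 of the 48 promoters of members (4.17%), those of Syn1 and Sh3gl2, beside 1.55% of all 32851 promoters in the table. The RE1 part was found in 1 (2.08%), that of Syn1, beside 0.301%. The GC box was found in 22 (45.8%), beside 32.7%. The TATA box (TATAAA) was found in 2 (4.17%), both of Sv2b, beside 12.4%, and the CCAAT box (CCAAT) in 8 (16.7%), beside 33.8%. The median GC content was 58.6% in promoters of members and 52.4% in all. These 5 elements were picked from 21 searched, after their counts were seen, and a match of letters is no evidence of binding.

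The SNARE proteins and the proteins that disassemble them showed small differences, except for the disassembly factors Nsf and Napb. All 7 genes had lower means in ipsilateral RGCs, the median difference was −0.27, and 5 were lower in every round. Nsf encodes the ATPase that takes SNARE complexes apart. It measured 6.52, 6.98 and 7.64 in ipsilateral RGCs of rounds 1 to 3, against 7.32, 7.86 and 7.96 in contralateral RGCs. The ipsilateral array of round 3 lay above the contralateral array of round 1, so the groups overlapped, although each round had the lower value on the ipsilateral side. The difference was −0.67 (SE 0.43), or 1.59-fold. Napb, beta-SNAP, is the brain form of the adaptor that brings Nsf to the SNARE complex. It measured 8.97, 9.38 and 9.05 in ipsilateral RGCs, against 9.51, 9.73 and 9.99 in contralateral RGCs. These groups did not overlap, and the difference was −0.61 (SE 0.39), or 1.52-fold. Napa, the widely expressed alpha-SNAP, had −0.24, −0.49 and −0.05 in the 3 rounds.

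The membrane-pulling SNAREs themselves differed less at their brightest probe sets. Snap25, a plasma membrane SNARE, averaged 12.71 ± 0.09 in ipsilateral RGCs and 12.91 ± 0.06 in contralateral RGCs (SD, n = 3 each). Its groups did not overlap, and its difference of −0.20 was among the smaller ones, with −0.23, −0.16 and −0.21 in the 3 rounds. The SE of this difference was 0.38 without and 0.14 with the block. Vamp2, the main vesicle SNARE of brain synapses, had nearly the same difference in each round, at −0.34, −0.32 and −0.33. Its arrays overlapped between groups, because levels on both sides moved together from round to round. Stx1a, the syntaxin partner of Snap25, had 0.12, −0.38 and −0.53, on a probe set of a class that can also bind other transcripts. Its dimmer probe set, 1448366_at, is not of that class and had −0.33, −0.90 and −0.58. Vamp1 had −0.81, −0.05 and 0.06, and its other probe set averaged 0.34, so its direction is not settled.

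Among the calcium sensors and clamps, both Syt4 and Syt1 were lower in every round without overlap. Syt1 is the sensor for fast synchronous release, and Syt4 is a synaptotagmin whose first C2 domain does not bind calcium. Syt4 measured 10.13, 10.57 and 10.61 in ipsilateral RGCs, against 10.71, 11.46 and 11.39 in contralateral RGCs. The difference was −0.75 (SE 0.41), or 1.68-fold, and the highest ipsilateral array lay 0.102 under the lowest contralateral one. Syt1 measured 10.08, 10.58 and 10.001 in ipsilateral RGCs, against 10.68, 11.17 and 10.80 in contralateral RGCs. Its difference was −0.66 (SE 0.40), or 1.58-fold, and again the groups lay close together. Cplx1, a complexin of fast release, had −0.37, −0.29 and −0.67. The remaining members stood near 0 on average, with −0.12 for Cplx2 and −0.09 for Syt11, and neither kept its sign over the rounds. The median of the 5 genes was −0.44.

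The vesicle membrane and Rab3 genes held one of the largest differences, that of Rab3c, and some genes whose sign changed between rounds. Rab3c is one of the Rab3 GTPases that tether vesicles. It measured 8.01, 9.14 and 8.77 in ipsilateral RGCs, against 9.01, 10.03 and 9.52 in contralateral RGCs. The groups overlapped, since round 1 was low on both sides, but each round differed by a similar amount, with −0.997, −0.894 and −0.75. The mean difference was −0.88, or 1.84-fold, with a limma SE of 0.44 without and 0.14 with the block. The size depended on the probe set. A probe set of nearly the same mean level (9.07, beside 9.08) averaged −0.44, and dimmer ones averaged −0.66 and −0.08. Rph3a, rabphilin, is an effector that binds Rab3 on the vesicle. It measured 9.94, 10.80 and 10.37 in ipsilateral RGCs, against 10.70, 11.34 and 11.12 in contralateral RGCs. Its difference was −0.68 (SE 0.41), or 1.60-fold, and it too was lower in every round with overlapping groups. Rab3a, the most abundant Rab3 of brain, had −0.70, −0.19 and −0.52.

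The other vesicle proteins of this group did not move as one. Syn1 and Syn2 encode synapsins, which hold vesicles in the reserve pool. Syn1 had −0.96, 0.23 and −0.90 and Syn2 had −1.01, 0.14 and −0.59, so both were lower in rounds 1 and 3 only. Syp, synaptophysin, had −0.16, 0.22 and −0.35. Round 2 thus ran against the other rounds in all 3 of these genes, and the median of the 8 genes of the group was −0.73, −0.02 and −0.67 in the 3 rounds. Sv2a, a vesicle glycoprotein and the target of the drug levetiracetam, was lower in every round with a mean of −0.51. Its relative Sv2b differed in sign, with values of 8.22, 8.75 and 7.74 in ipsilateral RGCs, against 7.65, 8.34 and 7.75 in contralateral RGCs. The mean difference of Sv2b was 0.32 (SE 0.42), and both of its probe sets had a positive mean.

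All 5 active zone genes were lower in ipsilateral RGCs in every round, with a median difference of −0.48. Rims1 encodes a Rab3 effector that positions calcium channels and primes vesicles. It measured 7.70, 8.81 and 8.83 in ipsilateral RGCs, against 8.47, 9.39 and 9.27 in contralateral RGCs, a difference of −0.59 (SE 0.45), or 1.51-fold. Pclo, piccolo, is a giant scaffold protein of the active zone. It measured 7.67, 8.64 and 7.97 in ipsilateral RGCs, against 8.12, 9.16 and 8.63 in contralateral RGCs, a difference of −0.55 (SE 0.44), or 1.46-fold. For both genes the arrays of the groups overlapped and the order held within each round. Bsn, bassoon, a relative of piccolo, averaged −0.48. Rims2 averaged −0.46 and the priming factor Unc13a −0.22.

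The vesicular transporters differed in sign. Slc17a6 encodes VGLUT2, the glutamate transporter of RGC vesicles. It measured 8.48, 9.66 and 9.41 in ipsilateral RGCs, against 9.69, 10.17 and 10.46 in contralateral RGCs. The groups did not overlap, by a gap of 0.028 between the ipsilateral array of round 2 and the contralateral array of round 1. The difference was −0.92 (SE 0.44), or 1.89-fold, with −1.21, −0.51 and −1.05 in the 3 rounds. A second probe set of Slc17a6 had −0.69, −0.93 and −1.21. Slc32a1 encodes the transporter that fills vesicles with GABA and glycine, and in the retina it marks amacrine and horizontal cells. It measured 7.36, 7.91 and 7.78 in ipsilateral RGCs, against 7.01, 7.44 and 7.99 in contralateral RGCs. The groups overlapped, and the difference of 0.20 (SE 0.41) came from rounds 1 and 2, with −0.21 in round 3.

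In the endocytosis group the median difference was −0.56, and 4 of 5 genes were lower in every round. Amph, amphiphysin, bends membrane at the neck of the budding vesicle and recruits dynamin. It measured 7.13, 7.37 and 6.75 in ipsilateral RGCs, against 7.81, 8.23 and 7.83 in contralateral RGCs. Every ipsilateral array lay under every contralateral one, and the difference was −0.87 (SE 0.39), or 1.83-fold, with an unadjusted p of 0.0441 in limma. Dnm1, the neuronal dynamin that cuts the vesicle free, measured 7.88, 8.56 and 7.81 in ipsilateral RGCs, against 8.30, 9.46 and 8.65 in contralateral RGCs. Its groups overlapped, and its difference was −0.72 (SE 0.44), or 1.65-fold. The other probe set of Dnm1, nearly as bright, averaged −0.27, with −0.55, 0.41 and −0.66 in the 3 rounds. Sh3gl2, endophilin A1, whose promoter is printed above, had −0.54, −0.40 and −0.75, and its groups missed overlapping by only 0.0027. Snap91, the clathrin assembly protein AP180, had −0.39, −0.69 and −0.58. Synj1, the lipid phosphatase that helps shed the clathrin coat, was the exception at its brightest probe set, with −0.15, 0.20 and −0.43. Its dimmer probe sets averaged −0.40, −0.73 and −0.49, and all but the last of these were lower in every round.

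Adhesion molecules and postsynaptic scaffold proteins had a median difference of −0.29 and were mixed between rounds. Nlgn2, the neuroligin of inhibitory synapses, measured 9.71, 9.95 and 9.81 in ipsilateral RGCs, against 10.10, 10.54 and 10.26 in contralateral RGCs. The groups did not overlap, and the difference was −0.48 (SE 0.38), or 1.39-fold. Nrxn3, a presynaptic partner of neuroligins, measured 5.84, 8.12 and 7.36 in ipsilateral RGCs, against 6.66, 7.99 and 8.05 in contralateral RGCs. Its spread over rounds was several times its difference of −0.46 (SE 0.57), and round 2 was higher on the ipsilateral side. Nrxn2 and Nlgn3 were lower in every round, with means of −0.29 and −0.28. The scaffold genes were not lower in every round at their brightest probe sets. Homer1 averaged −0.14, and Gphn, the gephyrin of inhibitory synapses, averaged −0.38 with 0.41 in round 1. Dlg4, the PSD-95 scaffold of excitatory synapses, averaged 0.09 with 0.29, 0.54 and −0.55. In each of these scaffold genes a dimmer probe set was lower in every round, and the signs of the probe sets disagreed.

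**Figure D2:**
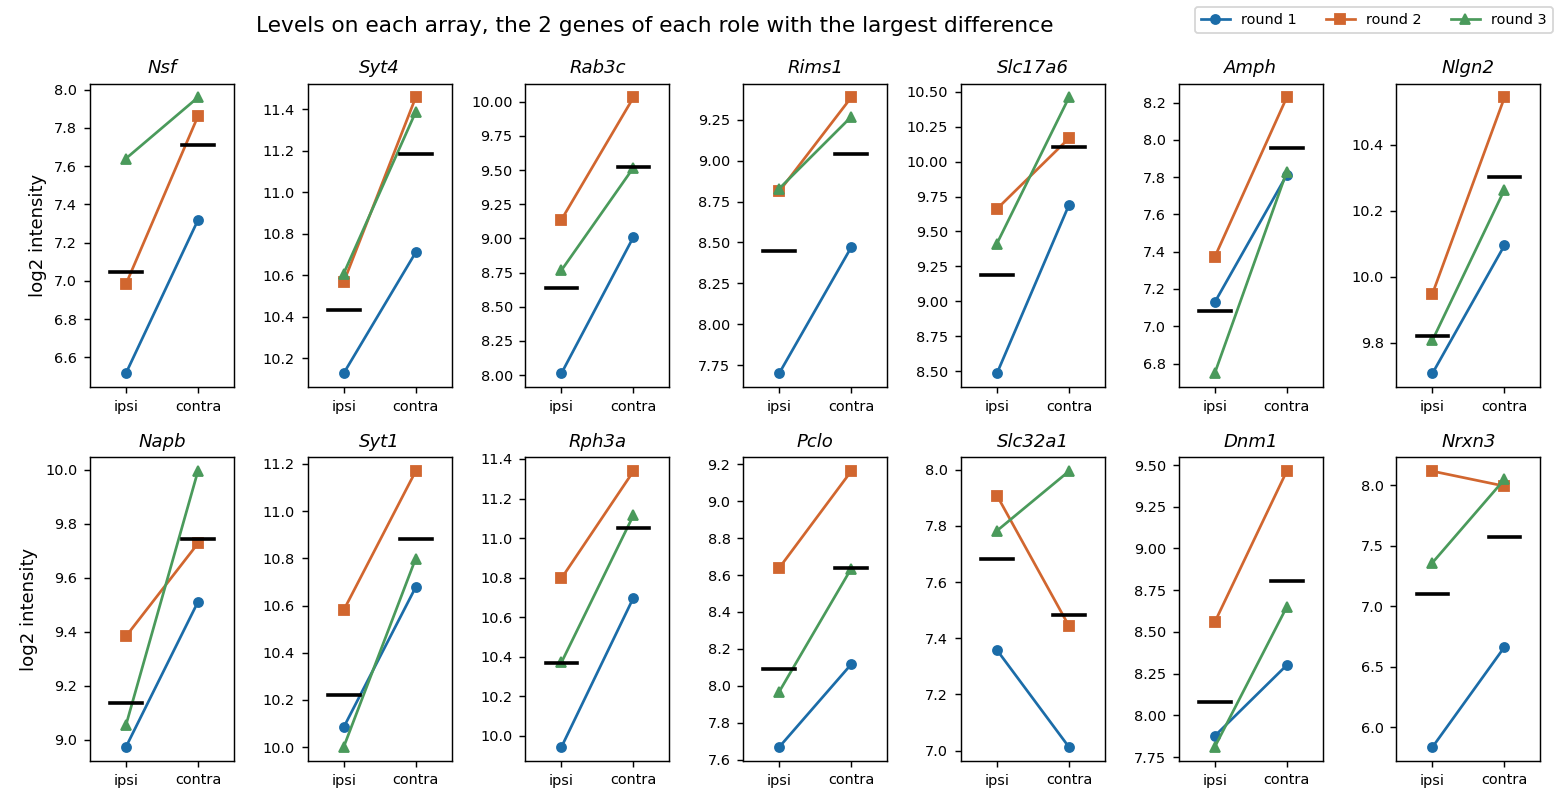
Log2 intensity on each array for the 2 genes of each role with the largest difference, with ipsilateral RGCs at left and contralateral RGCs at right in each panel; lines join arrays sorted in the same round, and black bars mark the mean of each side (n = 3). The lines slope up to the right in every round for 12 of the 14 genes, and cross or slope down in Slc32a1 and Nrxn3; each panel has its own log2 scale.

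Measured values of most members moved more between rounds than between the sides. For 26 of the 39 genes, the range over rounds was larger than the difference between sides in both groups. The median range over rounds was 0.68 in ipsilateral and 0.75 in contralateral RGCs. Round 1 held the lowest ipsilateral value of 31 members and the lowest contralateral value of 35, and round 2 the highest of 33 and 21. The medians of the whole arrays ran the same way, with 5.81, 6.70 and 6.33 for ipsilateral and 5.80, 6.65 and 6.26 for contralateral RGCs in rounds 1 to 3. Arrays of different rounds thus did not share 1 scale, and shifts of whole arrays enter these ranges and the counts of overlap. The 3 round differences of a member had a median SD of 0.26. The count of members not lower in ipsilateral RGCs was 7 in the first round, 9 in the second and 1, Vamp1, in the last. The members' median differences were −0.39, −0.34 and −0.55, while those of all genes were 0.01, −0.02 and −0.03.

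The remaining probe sets of the same genes, which the choice of the brightest did not use, were also lower for the most part. The 39 genes had 114 probe sets, of which 110 passed the filter. Of the 71 that were not the brightest, 61 had a lower mean in ipsilateral RGCs and 34 were lower in every round, with a median of −0.34. Over all probe sets kept on the array, 19.7% were lower in every round. These probe sets read the same RNA as the brightest ones and are no further replicates. All probe sets were lower for 24 of the 34 genes with more than 1, and the signs disagreed for 9 (Dlg4, Gphn, Homer1, Napa, Nrxn3, Nsf, Slc32a1, Syn2 and Vamp1). A second probe set of Rims1 had a larger difference than the first, −0.95, and a second of Rims2 had −0.75.

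Only Napb had probe sets that differed by 2-fold or more. Its 6 probe sets had mean differences from −1.35 to −0.20. The probe set 1452444_at measured 5.50, 6.88 and 5.86 in ipsilateral RGCs, against 6.94, 8.15 and 7.21 in contralateral RGCs. Each round differed by nearly the same amount, −1.44, −1.27 and −1.35, and the groups did not overlap. The mean difference was −1.35 (SE 0.48), or 2.56-fold, with a limma adjusted p of 0.986 without and 0.0559 with the block. The probe set 1427470_s_at measured 4.89, 5.91 and 5.69 in ipsilateral RGCs, against 6.13, 7.23 and 6.82 in contralateral RGCs, a difference of −1.23 (SE 0.45), or 2.35-fold, with a limma adjusted p of 0.0675 with the block. Neither passed the test. The study singled out Napb on these same samples, through the first of these probe sets, so the size there is not independent evidence. The remaining probe sets, the brightest one included, lay between −0.61 and −0.20.

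**Figure D3:**
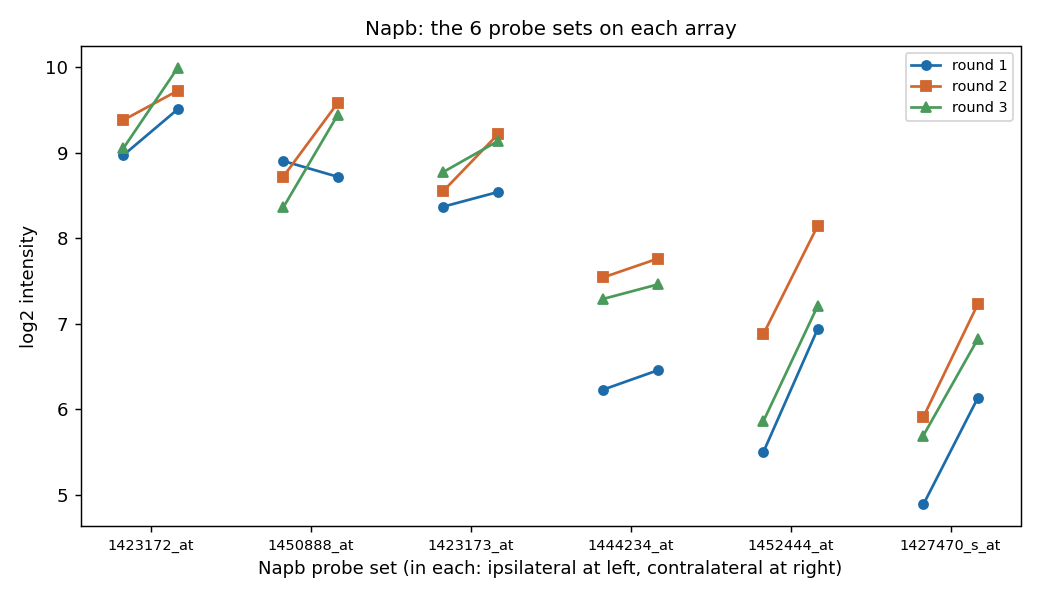
Log2 intensity of the 6 Napb probe sets on each array, with ipsilateral RGCs at left and contralateral RGCs at right within each probe set; lines join the arrays of a round. The lines are steepest for 1452444_at and 1427470_s_at, and round 1 of 1450888_at slopes the other way; heights of different probe sets are not comparable.

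Other synaptic genes, listed by the same roles, were lower less uniformly. Of 111 listed, 99 were measured above the filter. Their median difference was −0.16, 65 had lower and 34 higher means, and 37 were lower and 11 higher in every round. Over all genes, 20.2% were lower and 17.6% higher in every round. None was called in limma with or without the block. At an unadjusted p under 0.05, 1 was lower and 4 were higher without the block, and 19 were lower and 6 higher with it. The shares over all genes were 0.3% lower and 2.74% higher without the block, and 6.63% and 7.91% with it. The medians by role were −0.34 for 15 further active zone genes, −0.28 for 15 vesicle membrane genes and for 19 endocytosis genes, and −0.05 for 20 adhesion and postsynaptic genes. They were 0.00 for 14 SNARE and SNARE-binding genes and 0.01 for 16 calcium sensors, complexins and priming factors. The difference between these genes and the 39 was not tested.

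The largest negative differences among these other genes belonged to Apba1, Synpr and Cadps. Apba1 (Mint1, an adaptor of the presynaptic membrane) had −1.32, −1.01 and −0.63. Synpr (synaptoporin, a synaptophysin relative) averaged −0.70 (SE 0.40), and Cadps, which primes dense-core vesicles, averaged −0.66 (SE 0.44). All 3 were lower in every round. The largest positive ones belonged to Vamp8, Cadps2 and Dlg1. Vamp8, a SNARE of endosomes and of secretion outside neurons, measured 7.59, 6.75 and 6.23 in ipsilateral RGCs, against 3.90, 5.23 and 4.99 in contralateral RGCs. The groups did not overlap, but the contralateral mean of 4.70 lay under the filter level of 4.74, so the size of the difference, 2.15, is uncertain. Cadps2 averaged 1.26 (SE 0.59), with its contralateral mean of 4.64 likewise under that level. Dlg1, a relative of Dlg4 that is also found at epithelial junctions, averaged 1.17 (SE 0.54). Dlg1 is among the genes the study chose on these samples, through the same probe set, so its size is not independent evidence.

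Markers of RGCs and of other cells moved between the same samples, and their part in the differences of the synaptic genes was not tested. Of 12 RGC markers measured, all 12 were lower in every round, beside 20.2% of all genes, with a median of −0.36, and none was called. Among them, Pou4f1 (Brn3a) is a marker of contralateral RGCs in the study, which also chose it on these samples through another probe set. Sncg is counted among the other synaptic genes as well. Their summed level was 15.39 to 15.57 in ipsilateral and 15.66 to 15.90 in contralateral RGCs on the log2 scale. That of the 39 synaptic genes was 14.67 to 15.22 in ipsilateral and 15.01 to 15.52 in contralateral RGCs. The axonal growth genes Gap43 and Stmn2, both on the RGC list, had −0.29 and −0.46, and Thy1 had −0.83.

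Markers of several other cell types and states ran the other way. Many of them are among the genes the study chose on these samples, so their sizes are not independent evidence. Over all genes, 17.6% were higher in every round, and 0.358% were called higher without and 0.319% with the replicate block. All 12 microglia and macrophage markers were higher in ipsilateral RGCs in every round, and the median difference was 4.19. In limma 7 were called without and 7 with the block. The contralateral means of C1qb, C1qc, Aif1, Csf1r and Ptprc, at 4.40 to 4.71, lay under the filter level of 4.74. These genes thus passed the filter through their ipsilateral values, and the sizes of their differences are uncertain. Their summed level was 12.92 to 13.56 in ipsilateral and 8.49 to 9.83 in contralateral RGCs. Of 10 markers of retinal progenitors, 8 were higher in every round, and 3 were called without and 0 with the block. Their median was 1.82, with summed levels of 13.37 to 14.25 in ipsilateral and 12.68 to 12.78 in contralateral RGCs. Of 11 genes of the G2 and M phases, 9 were higher in every round, with a median of 2.05. Here 1 was called without and 0 with the block. All 5 photoreceptor precursor markers had higher means, 4 were higher in every round, and 1 was called without and 1 with the block. Their median was 1.43, with summed levels of 9.53 to 10.37 in ipsilateral and 7.85 to 8.48 in contralateral RGCs. Of 12 immediate early genes, which respond to handling and activity, 11 were higher in every round, with a median of 1.24. Of these 12, 2 were called without and 4 with the block. The contralateral mean of Egr2, 4.36, also lay under the filter level. Amacrine and horizontal cell markers, which bear on Slc32a1, had a median of 0.16, with 4 of 8 higher in every round and none called. Their round medians were 0.41, 0.18 and 0.18, and their summed level was 10.55 to 11.34 in ipsilateral and 10.59 to 11.17 in contralateral RGCs. Markers of endothelial cells and pericytes had a median of −0.05 over 6 genes and those of red blood cells 0.16 over 2, with none called.

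**Figure D4:**
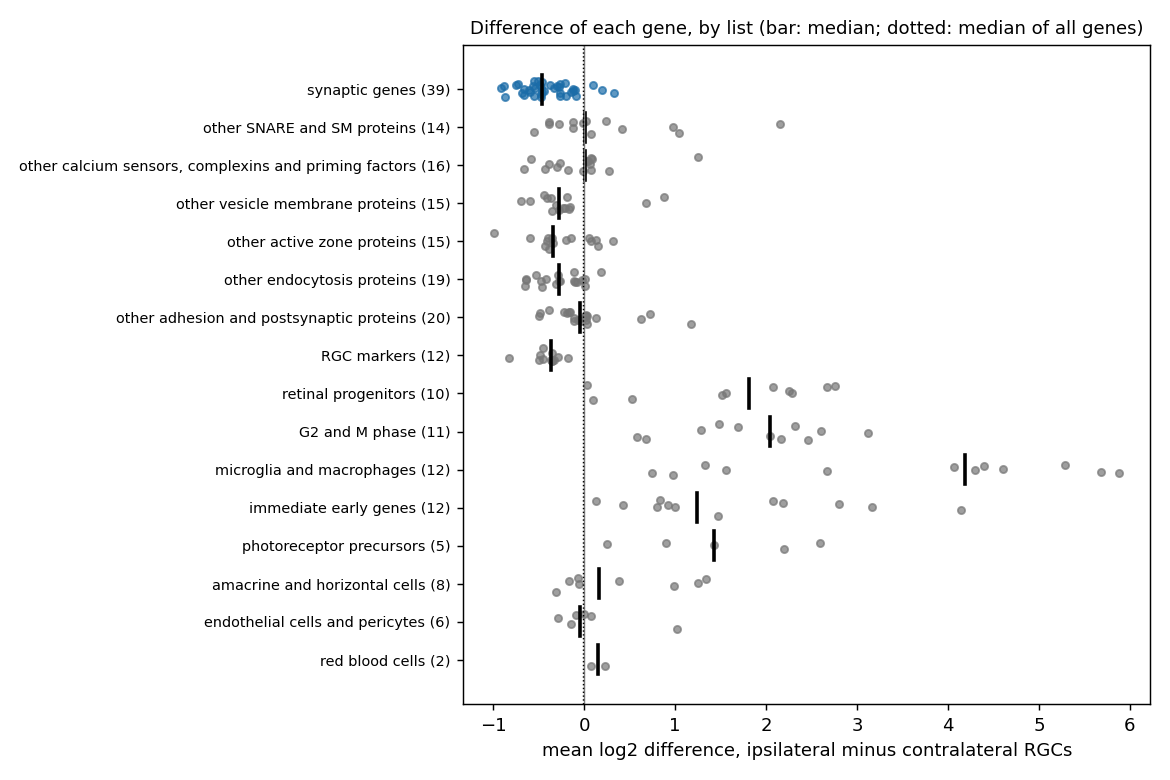
Mean log2 difference, ipsilateral minus contralateral RGCs, of each gene (points) in the 39 synaptic genes, the other synaptic genes by role and the marker lists; the black bar is the median of a list and the dotted line that of all genes (−0.01). The synaptic genes and RGC markers lie mostly between −1 and 0, whereas the microglia list has a median of 4.19.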

How the data were processed

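The 6 arrays (3 ipsilateral, 3 contralateral) hold cDNA amplified from sorted RGCs. The authors made the deposited log2 values with RMA in Affymetrix Expression Console 1.1 (RMA corrects background, normalizes and summarizes probes; no RMA version is given in the sources used here). Whether all arrays were normalized together is not stated, but the array medians differed more between rounds than within them. The test used in GeneSpring is not named. The 39 members and all lists were chosen with earlier results of these data known. Of 45101 probe sets, 64 controls were dropped and 36029 with a mean at or above the 20th percentile (log2 4.74) kept. Of the probe sets, 34945 were annotated to 1 gene, 932 to several and 9160 to none. The sides were set against each other by lmFit and eBayes of limma 3.58.1 (R 4.3.3) without a block, with Benjamini–Hochberg adjustment over all probe sets kept, and the script was tested on simulated data. Counts over genes used 1 probe set per gene.

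The numbers of the labels pair the arrays, since both sides of a round were prepared together. Residuals of arrays with the same number correlated at 0.511, 0.541 and 0.612, and others at −0.353 to −0.207. Values of every array are given for the 2 members of each role with the largest mean difference, for any that passed the test and for any that ran against its group in every round, as well as for Sv2b, added after its values were seen. Of the other synaptic genes, the 3 largest differences each way are named. Alternatives were the replicate block, other filters, a second quantile normalization, median centring, array weights, other tests, the mean of a gene's probe sets, unsuffixed probe sets and leaving out arrays. The number of arrays limits the precision.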

Additional observations from a re-analysis of the deposited data

How the results depend on the processing

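No member was called under the replicate block (0 lower and 0 higher, beside 0.0% and 0.319% of all genes) or under any alternative but 1. With array weights 2 were called lower, Slc17a6 (−1.01, adjusted p = 0.0132) and Amph (−1.05, adjusted p = 0.00764), beside 0.365% of all genes. That fit did not reach its convergence tolerance and put most weight on round 3 (5.67 and 6.12, beside 0.281 to 0.657 for the other arrays). The median difference of −0.46 was −0.41 after a second quantile normalization, −0.51 after median centring and −0.37 when each gene was given as the mean over its probe sets. It ran from −0.67 to −0.22 when 1 array was left out, with −0.22 without ipsilateral replicate 1 and −0.28 without contralateral replicate 2; such a fit no longer compares whole rounds. When a whole round was left out, 26 to 31 members were lower in both of the others. This count cannot fall below the 25 lower in all 3, and the share over all genes was not taken.

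Under these alternatives the sign turned in 10 members. Single dimmer probe sets are no such alternative, and in Nsf, Homer1, Gphn and Syn2, which are not among the 10, they included positive differences (up to 0.45, 0.29, 0.22 and 0.16). Array weights gave Vamp1 0.010, Slc32a1 −0.13 and Dlg4 −0.43, the mean of probe sets gave Vamp1 0.035 and Dlg4 −0.15, and a probe set with an unsuffixed name gave Vamp1 0.34. Leaving out 1 array gave ranges of −0.84 to 0.12 for Stx1a, −0.44 to 0.030 for Napa, −0.29 to 0.11 for Syt11, −0.50 to 0.18 for Cplx2, −0.20 to 0.037 for Syp, −1.03 to 0.086 for Syn1, −0.97 to 0.17 for Nrxn3, −0.036 to 0.45 for Slc32a1 and −0.34 to 0.39 for Dlg4. The cause was not tested. Slc17a6, Rab3c and Amph stayed negative, at −0.57 or below without any 1 array. No signal over background is given with these values, so how far dim probe sets compress a difference is unknown.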
